A study of Bos taurus with 8 samples.

Results

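The data described here are those of 9 genes of tight and adherens junctions, TJP1, JAM3, F11R, NECTIN2, CDH2, CDH11, CTNNB1, CTNNA1 and ARVCF. They were found on the array by gene name, NECTIN2 under its older name PVRL2. These names gave 31 of the 51282 probes that were not controls, with 1 to 5 probes per gene. Of the 31 probes 25 were kept, because all arrays of 1 group or more read them well above background, out of 31546 kept on the whole array. All 9 genes had a kept probe. The cells, labelled as primary bovine Müller glia and kept in culture for 18 to 21 days, were treated for 24 h with HIV-1 TAT at 100 ng/ml (3 arrays), treated for 24 h with HIV-1 gp120 at 60 ng/ml (3 arrays, labelled Gp120), or served as Control (2 arrays). The text on RNA extraction calls the same cells astrocytes, so the labels differ on the cell type. TAT is the transcriptional activator of the virus and gp120 the part of its envelope that binds the host cell. The groups follow the sample titles, since the treatment text is the same for all samples and names both proteins. Replicates carry the letters A, B and C, with no Control C, and whether a letter stands for a culture or an animal of its own is not stated. The p-values then measure only the spread between these samples, which may be technical.

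Adherens junctions hold neighbouring cells together through cadherins, whose cytoplasmic tails bind β-catenin (CTNNB1) and catenins of the p120 family such as ARVCF, while α-catenin (CTNNA1) links the complex to actin. Nectins such as NECTIN2 adhere beside the cadherins. Tight junctions seal the gap between cells, with junctional adhesion molecules (F11R, JAM3) at the membrane and the scaffold TJP1, also known as ZO-1, beneath it. In the retina Müller glia are joined to photoreceptors by adherens junctions that form the outer limiting membrane, and N-cadherin (CDH2) is a cadherin of glia and neurons. CDH11 is a cadherin best known from mesenchymal cells.

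The probes are 60 bases long and are placed by the file headers on the build HGSC Btau_3.1, for which no annotation was used here, so exons and untranslated regions are not named. The 4 probes of CTNNB1 are shown because they gave unlike results, and lie on the plus strand at chr22:14178353-14178412, chr22:14177870-14177929, chr22:14177773-14177832 and chr22:14168022-14171038, in the order given. The last covers 3017 bases of the genome with its 60, so it crosses an intron, and it is printed whole. Of the other 3 the last 30 bases are printed, 5′ to 3′.
A_73_P033226: agaaaatgcggttataaaaatggttcagaa
A_73_P253861: gaatttatcaaactctagccttgcttgtta
A_73_101586: ttttgttctggtcctttttggtcgaggagt
A_73_P256336: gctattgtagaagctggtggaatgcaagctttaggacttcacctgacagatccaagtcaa

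The kept ARVCF probe, on the plus strand at chr17:76204110-76204498, is shown because it had the smallest p-values of the members. It also crosses an intron, and at 65% GC it is the richest in G and C of the 31 probes, whose median was 41.7%. The brightest CDH2 probe, on the plus strand at chr24:29962094-29962153, has near its 3′ end the letters AATAAA, in capitals, which are also those of the common polyadenylation signal. The motifs AATAAA and ATTAAA, searched on the strand of the probe, occur in 3 of the 31 probes (9.68%) and in 5901 of all 51282 probes, so the members are near the whole array in this. A match is a description of the letters only. The CTNNA1 and JAM3 probes that differed between letters lie on the minus strand at chr7:51299129-51299188 and chr29:34518805-34518864.
ARVCF A_73_P461491: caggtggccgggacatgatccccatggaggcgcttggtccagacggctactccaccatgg
CDH2 A_73_113216: acacctctgaccccagcgttctgAATAAAa
CTNNA1 A_73_P425049: aagtcatagaattcaggggcatatatctag
JAM3 A_73_P259186: gttctgcttttctatgggtgtttattttat

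Probes of a gene differed in whether they gave a signal. The 22 probes that were well above background on all 8 arrays lay 0 to 15691 bases of genome, introns included, upstream of the 3′-most probe of their gene, with a median of 465. The 6 probes that were not kept lay 1227 to 46490 bases upstream, with a median of 19466. The ranges overlap: a CDH11 probe at 15691 bases and a CTNNA1 probe at 10994 were read on all arrays, and an F11R probe at 1821 on none. RNA was copied with an oligo-dT primer, per the labels, and the part of this in detection was not tested. The probes not kept belong to TJP1 (2 probes), CDH2 (2), F11R (1) and ARVCF (1), and 4 of them were above background on 0 of 8 arrays. The other 2 were the CDH2 probe A_73_P064131, above background on 2 arrays, and the ARVCF probe A_73_P051336, on 5. Of the kept probes A_73_P206137 of CDH11 and A_73_P307091 of JAM3 were not well above background on Control A and Gp120 A, nor was A_73_P069086 of TJP1 on Control A. These 3 entered the fit through other groups.

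All 8 arrays were of 1 slide, and 55.5% to 64.6% of the spots of each were well above background. Slide row 1 held both Control arrays, TAT A and Gp120 A, and row 2 the other 4. Scan 1 holds Gp120 B and C, and scan 2 the other 6 arrays. The arrays went by letter, or by slide row, more than by treatment. With letters in the fit, 4037 of 31546 probes differed between them at an adjusted p under 0.05 in limma's moderated F-test with Benjamini-Hochberg adjustment. All letter A arrays are in row 1 and the treated B and C arrays in row 2, so only Control B separates letter A from row 1. The treated arrays of letters B and C share a row. With slide row as a block far fewer probes differed, as given in the section on processing. Of the Müller glia markers 6 of 11 on the array were above background on all arrays (GLUL, SLC1A3, VIM, AQP4, DKK3 and CLU). RLBP1 and GFAP were above it on 2 arrays, KCNJ10 and SLC1A2 on 1, and CA14 on none. Also above background on all arrays were 9 of 10 fibroblast, 8 of 8 pericyte and smooth muscle, 7 of 8 microglia and 2 of 5 neuron markers. The endothelial list had 6 of 9 (CDH5 on none) and the epithelial list 4 of 10 (TYR on none). Markers of several cell types were thus present beside the glial ones, and which cells carry the junction transcripts was not tested. In RNA of whole cultures, fewer cells of a type and less RNA per cell cannot be told apart.

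With TAT, 7 of the 9 genes were higher than in Control on their brightest probe, by 0.15 to 0.71 on the log2 scale, and F11R and ARVCF were lower by 0.17 and 0.16. With Gp120 all 9 were higher, by 0.03 (TJP1) to 0.93 (ARVCF). Not one of these differences passed the test: 0 of 25 member probes were called for TAT, for Gp120 or for TAT against Gp120 (limma, Benjamini-Hochberg adjusted p under 0.05), as were 0 of 31546 probes overall (0%). At an unadjusted p under 0.05 there were 434, 1336 and 1245 probes on the array in the 3 comparisons, with 0, 1 and 1 members among them. With the letters as a block the called share was again 0% in each. At an unadjusted p under 0.05 there were then 1311, 2335 and 3211 probes on the array, with 2, 3 and 4 members among them. The median 95% interval of a member probe reached 0.93 to either side of its difference from Control, and differences larger than that, such as 1.18 for the CTNNA1 probe A_73_P355991 with Gp120, were not called either.

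Directions can be set beside the whole array, without a test, since the 2 comparisons share their Control arrays and the members share theirs. The members were also chosen with earlier results of these data known, so a share unlike that of the array can come from the choice. Of 45 other junction genes 27 were above 0 with TAT and 24 with Gp120. Above 0 with TAT were 20 of 25 member probes, against 46.5% of all kept probes, and 7 of 9 genes, against 45% of all genes. With Gp120 they were 25 of 25 probes, against 50.1%, and 9 of 9 genes, against 48.1%. For TAT minus Gp120 they were 10 of 25 probes, against 45.5%, and 5 of 9 genes, against 46.2%. The median over the member probes was 0.38 for TAT and 0.43 for Gp120, where all kept probes had medians of -0.02 and 0.00. Over the 22 probes above background on all arrays the counts were 17 with TAT and 22 with Gp120. Control A decided much of this, since without it 4 of 9 genes were higher with TAT and 4 of 9 with Gp120. With scan as a block, which leaves Gp120 A alone to be set against the Controls, 5 of 9 were higher with Gp120.

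The arrays of TAT lay wholly above those of Control for 6 of 25 member probes, against 5.45% of all kept probes, and wholly below for 0, against 8.69%. They were 2 JAM3 probes and 1 probe each of CTNNB1, CTNNA1, CDH2 and CDH11. Of these, A_73_P307091 of JAM3 and A_73_P206137 of CDH11 were above background on all arrays of TAT alone and so were kept only through the group where they are high. Among the 22 probes above background on all arrays there were 4. For Gp120 4 probes lay wholly above Control, against 7.9%, and 0 wholly below, against 7.74%. These were 2 CDH2 probes and 1 each of CTNNB1 and ARVCF. TAT lay wholly above Gp120 for 0 probes, against 3.33%, and wholly below for 2, against 4.6%, which were the CTNNB1 probe A_73_101586 and the ARVCF probe. Within letters, both TAT arrays that have a Control of their letter were higher for 9 probes, against 20.3%, and lower for 2, against 28.6%. Both such Gp120 arrays were higher for 19 probes, against 24.5%, and lower for 0, against 24.8%. All 3 TAT arrays were higher than the Gp120 array of their letter for 0 probes, against 13.5%, and lower for 5, against 20.3%. These counts carry the same limit from the choice of members.

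**Figure D1:**
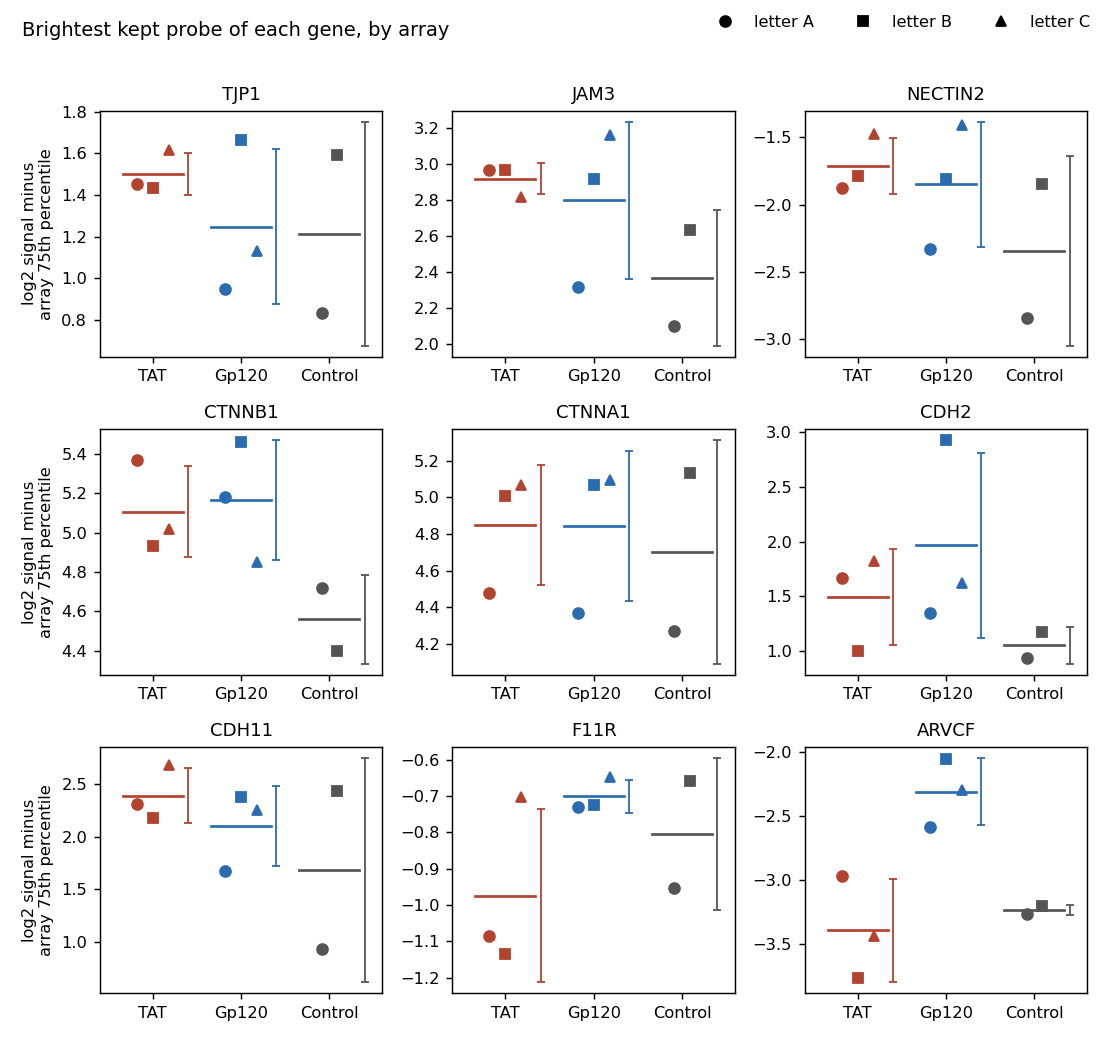
Signal of the brightest kept probe of each gene on each array, as log2 of the processed signal minus the array's 75th percentile. Symbols give the replicate letter, horizontal lines the group mean and bars 1 SD (n = 3 TAT, 3 Gp120 and 2 Control arrays). CTNNB1 is higher on all TAT and Gp120 arrays than on Control arrays and ARVCF on all Gp120 arrays, while letter A is low for CTNNA1 in all groups.

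Levels below are log2 signals minus the array's 75th percentile, in the order of letters A, B and C, and each difference is on the log2 scale with its standard error (SE) from limma. The adjusted p was 1 for every member in TAT minus Control and in TAT minus Gp120, and 0.966 to 0.995 on the brightest probes in Gp120 minus Control. Levels of different probes cannot be set against each other.

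JAM3 encodes JAM-C, an adhesion molecule of the immunoglobulin family. Its brightest probe had levels of 2.97, 2.97 and 2.82 on the TAT arrays, 2.31, 2.91 and 3.16 on the Gp120 arrays, and 2.10 and 2.63 on Control A and B. All TAT arrays were above both Controls, and Gp120 A lay between them. The difference was 0.55 (SE 0.30, 1.47-fold) for TAT and 0.43 (SE 0.30) for Gp120. Its probe A_73_P259186 gave 0.38 for TAT and 0.28 for Gp120. The third, A_73_P307091, was above background on 3 TAT, 2 Gp120 and 1 Control arrays, so its fitted values of 0.67 and 0.38 rest in part on levels not well above background. Within letters A and B the brightest probe differed by 0.87 and 0.34 for TAT and by 0.21 and 0.28 for Gp120.

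F11R encodes JAM-A, a related molecule of epithelial and endothelial tight junctions. Its brightest probe stood at -1.08, -1.14 and -0.70 with TAT, at -0.73, -0.72 and -0.65 with Gp120, and at -0.95 and -0.66 in Control. The differences were -0.17 (SE 0.23) for TAT and 0.11 (SE 0.23) for Gp120, both within the spread. Its other kept probe, which lies 1449 bases nearer the 3′ end, went with it little over the 8 arrays (Pearson's r of 0.15). That probe stood at 0.02 on Gp120 B, against -2.47 and -2.57 on Gp120 A and C, -2.32 to -1.35 with TAT and -2.62 and -1.75 in Control. Gp120 B alone was high there.

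NECTIN2, a nectin that is also a ligand of immune receptors, has 1 probe. It read -1.88, -1.79 and -1.48 with TAT, -2.33, -1.81 and -1.41 with Gp120, and -2.84 and -1.84 in Control. Control A was the lowest of the 8 arrays, and the other letter A arrays were the lowest of their groups. The differences were 0.63 (SE 0.38) for TAT and 0.49 (SE 0.38) for Gp120. Within letter A they were 0.97 and 0.51, but within letter B 0.06 and 0.03, and without Control A they were 0.13 and -0.01.

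CDH2, N-cadherin, read 1.66, 1.0 and 1.82 with TAT on its brightest probe, 1.35, 2.93 and 1.62 with Gp120, and 0.93 and 1.17 in Control. All Gp120 arrays were above both Controls, with Gp120 B far above the rest, while TAT B lay between the Controls. The difference was 0.91 for Gp120 (SE 0.48, 1.88-fold) and 0.44 for TAT (SE 0.48). The second kept probe had the same arrays at its top, with 0.70 on Gp120 B, and gave 0.91 for Gp120 and 0.76 for TAT (r of 0.90 between the probes). Without Gp120 B the Gp120 difference of the brightest probe was 0.43, and within scan 2, where Gp120 has only array A, it was 0.30.

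CDH11 has 5 kept probes, and all gave higher values with both proteins. The brightest read 2.31, 2.17 and 2.68 with TAT, 1.67, 2.38 and 2.25 with Gp120, and 0.93 and 2.43 in Control. Control A was by far the lowest array and Control B among the highest, so the groups overlapped. The differences were 0.71 (SE 0.45) for TAT and 0.42 (SE 0.45) for Gp120, and the 3 other probes above background on all arrays gave 0.31 to 0.63 for TAT and 0.26 to 0.39 for Gp120. The last, A_73_P206137, was above background on 3 TAT, 2 Gp120 and 1 Control arrays, so its fitted values of 1.59 and 1.54 rest in part on levels not well above background. Within letter B the brightest probe was lower by 0.26 with TAT and by 0.05 with Gp120, against 1.38 and 0.74 higher within letter A. Without Control A the differences were -0.04 and -0.33. The 5 probes followed each other over the 8 arrays, with r of 0.70 to 0.93.

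CTNNB1 encodes β-catenin, which both binds cadherins and carries Wnt signals to the nucleus. Its brightest and 3′-most probe, A_73_P033226, read 5.37, 4.93 and 5.02 with TAT, 5.18, 5.46 and 4.85 with Gp120, and 4.72 and 4.4 in Control. Both treated groups lay wholly above Control. The differences were 0.55 for TAT (SE 0.27, 1.46-fold, unadjusted p = 0.0769) and 0.61 for Gp120 (SE 0.27, 1.52-fold, unadjusted p = 0.0546). Within letters A and B they were 0.65 and 0.53 for TAT and 0.46 and 1.06 for Gp120, and within scan 2 Gp120 A was 0.62 above the Controls. The signs of these follow from the groups not overlapping, and add nothing to it. Over all alternatives the TAT difference ran from -0.04, with the median over the 4 probes, to 0.765, and the Gp120 difference from 0.26 to 0.82.

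The other 3 CTNNB1 probes did not give the same result. In the same order as printed above they gave 0.00 (SE 0.23), -0.07 (SE 0.25) and -0.24 (SE 0.37) for TAT, and 0.14, 0.45 and 0.09 for Gp120. A_73_101586 read 1.5, 1.57 and 1.70 with TAT, 1.81, 2.24 and 2.29 with Gp120, and 1.44 and 1.89 in Control, so that TAT was lower than Gp120 by 0.52 (SE 0.23, unadjusted p = 0.0505). A_73_P253861 read 3.09, 2.71 and 2.86 with TAT, 3.07, 3.19 and 2.82 with Gp120, and 2.88 and 2.89 in Control. On these probes the TAT and Control arrays overlapped.

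Over the 8 arrays the brightest CTNNB1 probe correlated with the others at r of 0.69, 0.11 and 0.51, while A_73_P253861 and A_73_P256336 gave 0.87. The distance on each array between the brightest probe and the mean of the other 3, a measure chosen after the values were seen, was 4.25, 4.21 and 4.23 with TAT, 4.01, 4.06 and 3.82 with Gp120, and 3.76 and 3.40 in Control. It did not overlap between any pair of groups, and no share over other genes is set beside this. It was larger by 0.65 with TAT and by 0.38 with Gp120 than in Control, and larger by 0.27 with TAT than with Gp120. These are descriptions, given with no test, and which of the probes follows the gene as a whole was not tested.

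**Figure D2:**
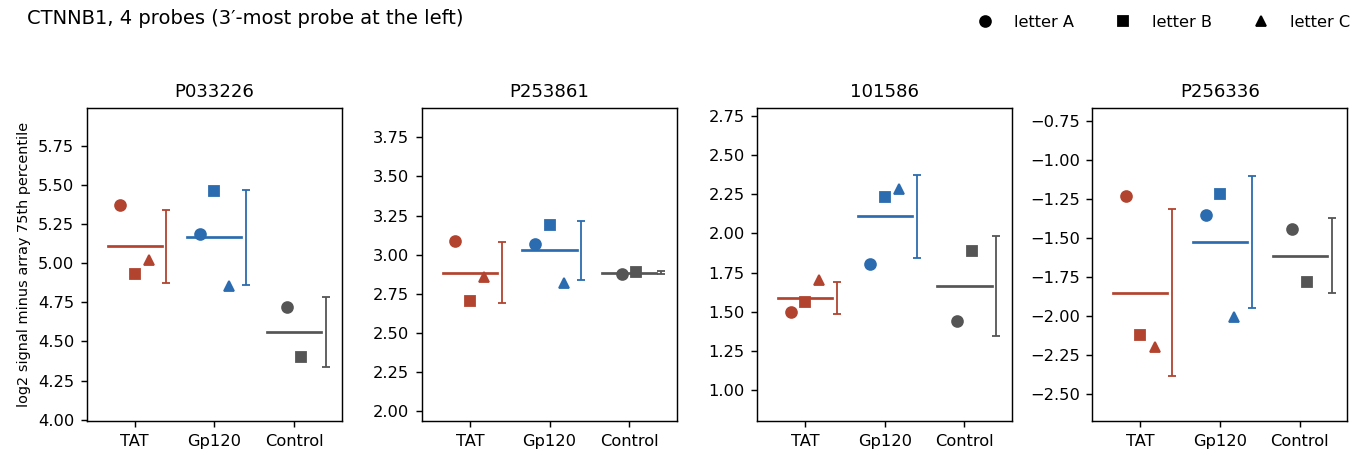
Levels of the 4 CTNNB1 probes on each array, ordered from the 3′-most probe at the left, each panel spanning 2 log2 units around the probe's mean. Symbols give the letter, lines the group mean and bars 1 SD. TAT and Gp120 arrays stand above both Controls on A_73_P033226, where TAT differed by 0.55 and Gp120 by 0.61, and overlap Control on the others.

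CTNNA1, α-catenin, showed little difference by treatment on its brightest probe. It read 4.48, 5.01 and 5.07 with TAT, 4.37, 5.07 and 5.09 with Gp120, and 4.27 and 5.13 in Control. In every group letter A was low, and with TAT and with Gp120 letters B and C were nearly equal. The differences were 0.15 (SE 0.37) for TAT and 0.14 (SE 0.37) for Gp120, with 95% intervals of -0.70 to 0.99 and -0.71 to 0.99. Its probe A_73_P355991 gave the largest Gp120 difference among probes above background on all arrays, 1.18 (SE 0.53, unadjusted p = 0.0576). It rested on Gp120 B at 1.78 and Gp120 C at 0.82, against -0.24 on Gp120 A, 0.03, 0.51 and -0.14 with TAT, and -0.56 and -0.23 in Control. The 2 high arrays are those of scan 1, so scan and treatment cannot be told apart there.

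ARVCF, a catenin of the p120 family, had the smallest p of the members. Its kept probe read -2.97, -3.77 and -3.44 with TAT, -2.58, -2.06 and -2.29 with Gp120, and -3.27 and -3.21 in Control. The Gp120 arrays lay above all 5 others. Gp120 was 0.93 above Control (SE 0.29, 1.90-fold, unadjusted p = 0.0134, adjusted p = 0.966 in limma), and TAT was 1.08 below Gp120 (SE 0.26, unadjusted p = 0.00333, adjusted p = 1). TAT differed from Control by -0.16 (SE 0.29). In letter pairs Gp120 was higher than Control by 0.69 and 1.15, and TAT was lower than Gp120 by 0.39, 1.72 and 1.15. Within scan 2 Gp120 A was 0.66 above the Controls. As the Gp120 arrays lay above all 5 others, the signs of these differences were fixed. With normexp background correction and quantile scaling the differences shrank to 0.27 and -0.33. The other ARVCF probe, above background on 5 arrays, read -4.47, -4.34 and -5.39 with TAT, -4.42, -4.21 and -5.05 with Gp120, and -5.05 and -4.80 in Control, with overlapping groups.

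TJP1, the scaffold ZO-1, read 1.45, 1.43 and 1.61 with TAT on its brightest probe, 0.95, 1.66 and 1.13 with Gp120, and 0.83 and 1.59 in Control. Of the 6 treated arrays 4 lay between Control A and Control B. The differences were 0.29 (SE 0.31) for TAT and 0.03 (SE 0.31) for Gp120, with a 95% interval of -0.69 to 0.76 for Gp120. The next probe upstream gave 0.03 and 0.07. The probe beyond it, not well above background on Control A, gave 0.10 and 0.71.

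**Figure D3:**
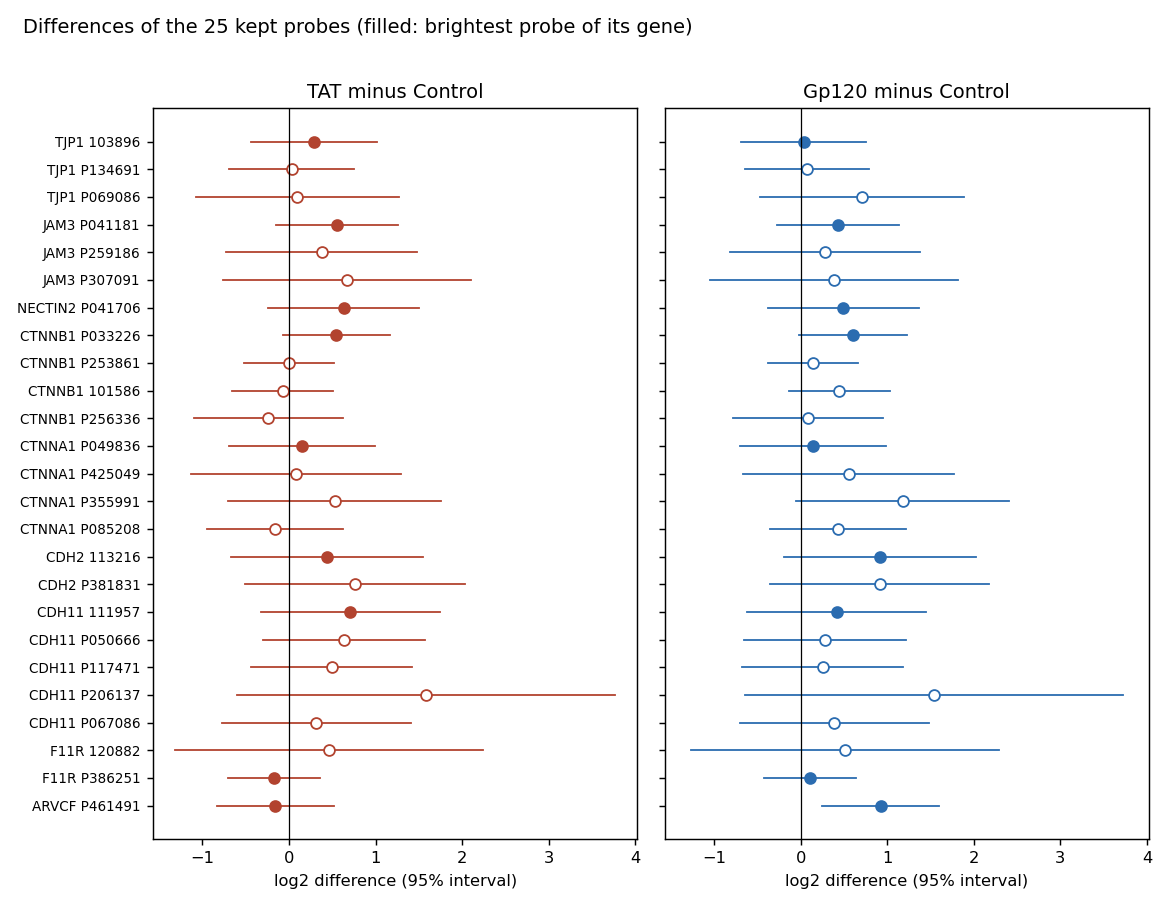
Log2 difference from Control of each kept probe with its 95% interval from limma, TAT at the left and Gp120 at the right, with the brightest probe of each gene filled. Of 25 probes 20 lie above 0 with TAT and 25 with Gp120, and the interval leaves out 0 for 1 probe, ARVCF with Gp120.

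The same-letter differences show where the results rest on a single pair. With TAT, letter A was above 0 for 8 of 9 genes and letter B for 3, JAM3, NECTIN2 and CTNNB1. With Gp120, letter A was above 0 for 9 genes and letter B for 6. CDH11, TJP1, CTNNA1, CDH2 and ARVCF differed in sign between the letters for TAT, and CDH11, CTNNA1 and F11R for Gp120. For TAT minus Gp120, F11R and ARVCF were below 0 in all 3 letters, and CDH2 gave -1.93 in letter B against 0.31 and 0.20 in A and C.

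**Figure D4:**
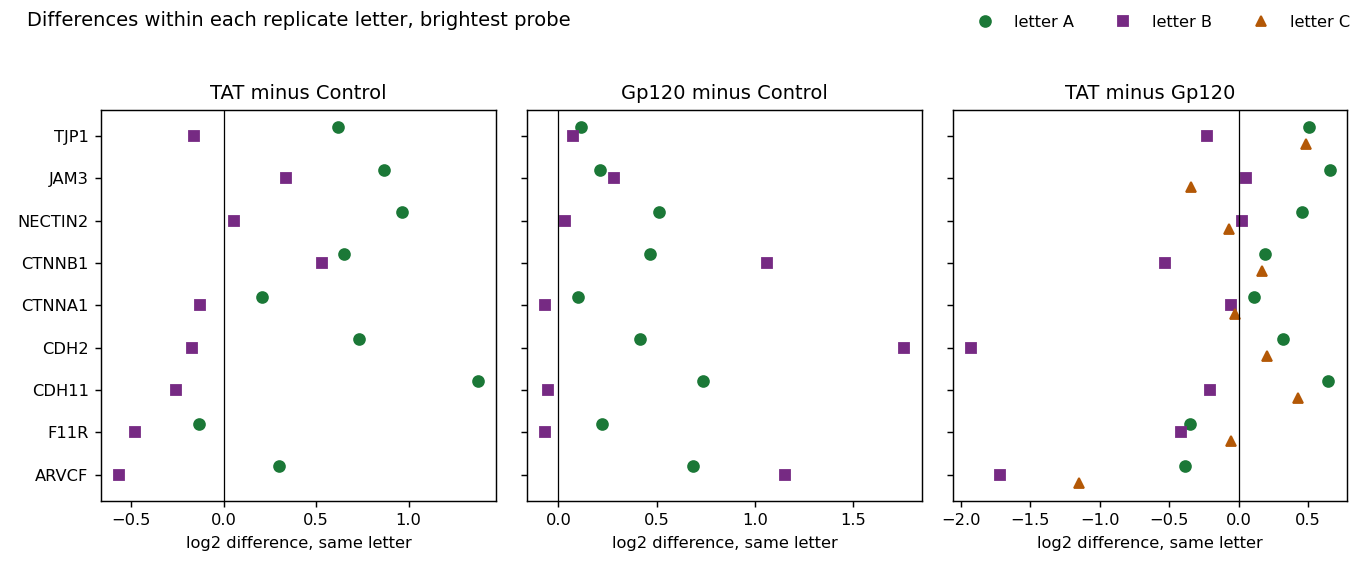
Log2 difference between arrays of the same letter for the brightest probe of each gene, TAT minus Control, Gp120 minus Control and TAT minus Gp120 from left to right. Each symbol is 1 pair, and letter C has no Control. CTNNB1 and JAM3 lie above 0 in both letters for TAT and for Gp120, and CDH11 with TAT has 1.38 in letter A and -0.26 in letter B.

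Between letters 2 of 25 member probes passed limma's F-test (8 at an unadjusted p under 0.05), against 12.8% of all kept probes, a share near the background. One was CTNNA1 A_73_P425049 (adjusted p = 0.02), higher than in letter A by 1.01 in B (SE 0.18) and by 1.21 in C (SE 0.21). It read 2.29, 2.90 and 2.46 in letter B (TAT, Gp120, Control), 2.44 and 3.12 in letter C (TAT, Gp120), and 1.48, 1.63 and 1.52 in letter A. The other was JAM3 A_73_P259186 (adjusted p = 0.0373), higher by 0.81 in B (SE 0.19) and by 1.12 in C (SE 0.22). It read 1.88, 1.87 and 2.02 in letter B, 2.21 and 2.32 in letter C, and 1.42, 1.03 and 0.90 in letter A.

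In the single contrasts 3 member probes were called for B minus A, against 11.2%, and 2 for C minus A, against 13.5%. For C minus B 0 member probes were called, against 313 of all 31546 kept probes. The probe added in B minus A was the brightest of CTNNA1, with 0.70 (SE 0.16, adjusted p = 0.0415). All of these calls put letter A low. In the F-test both probes also passed with normexp and quantile scaling, with the percentile over detected probes and among probes above background on all arrays. The brightest CTNNA1 probe (adjusted p = 0.0523) passed with normexp and quantile scaling (0.0256), among probes above background on all arrays (0.0371) and with 1 probe per gene (0.0328). With slide row as a block the adjusted p of the called CTNNA1 and JAM3 probes was 0.269 and 0.189. With scan as a block it was 0.0745 and 0.128, and with no filter on dim probes 0.0593 and 0.0979. In the fit of letters the scan block gave the same values as leaving out Gp120 A, so these are not separate checks. The same holds for leaving out Control A and leaving out Control B. Without single arrays CTNNA1 A_73_P425049 had an adjusted p of 0.0443 to 0.089 (under 0.05 without TAT B or Gp120 B) and JAM3 A_73_P259186 of 0.061 to 0.153.

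**Figure D5:**
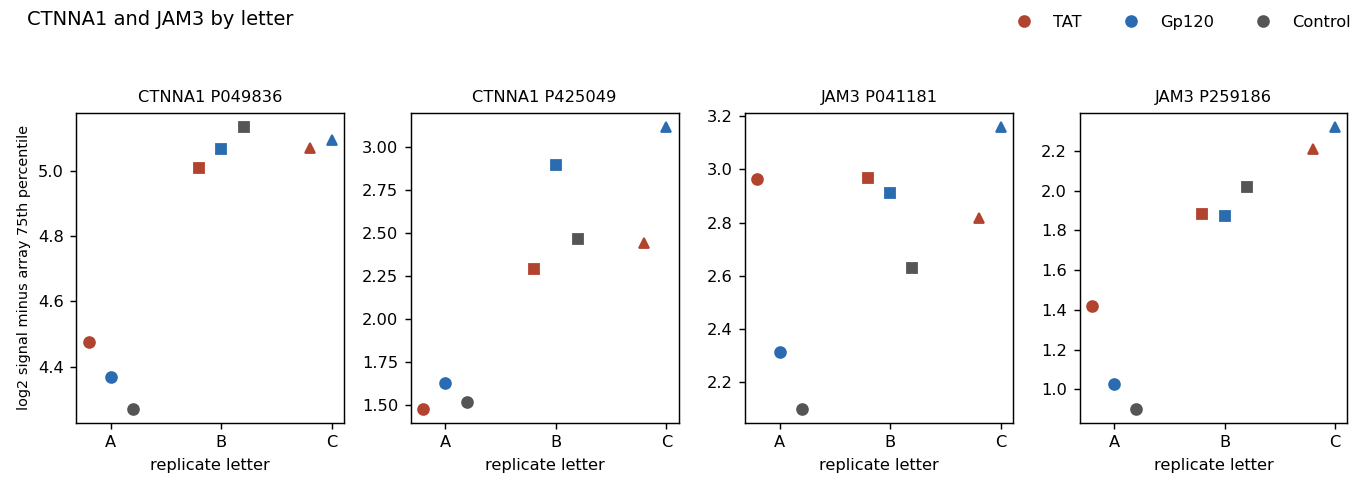
Levels of the 2 3′-most CTNNA1 probes and the 2 3′-most JAM3 probes by replicate letter, with the treatment in colour. Letter A is below B and C in every group on both CTNNA1 probes and on JAM3 A_73_P259186, which passed with an adjusted p of 0.0373.

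Levels of the brightest probes of NECTIN2 and CDH11 moved together over the 8 arrays (r of 0.92), as did NECTIN2 and JAM3 (0.90) and TJP1 and CDH11 (0.88), while CTNNB1 and CTNNA1 gave -0.20. These points share arrays, letters and scaling, and the values are descriptions. Among 12061 other genes the most alike were FSTL1 and HSPG2 for CDH11 (r of 0.98 each), GLI1 and TMEM119 for NECTIN2 (0.98 and 0.97), DDR2 and ENTPD5 for JAM3 (0.95 and 0.94), and FSTL3 and LIMK2 for CDH2 (0.99 and 0.98). For the catenins they were IGFBP2 and FAXC for CTNNB1 (0.96 each), PFKM and CENPP for CTNNA1 (0.99 each), and AXIN1 and MON1A for ARVCF (0.98 and 0.96). For TJP1 they were CPNE2 and HEBP2 (0.98 and 0.97), and for F11R PIAS2 and PBX4 (0.98 and 0.97).

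Markers of other cells differed between the arrays as well. The summed signal of 9 kept fibroblast markers, relative to the 75th percentile, was 216 to 299 with TAT, 158 to 201 with Gp120 and 161 to 165 in Control. That of 8 pericyte and smooth muscle markers was 203 to 379 with TAT, 152 to 429 with Gp120 and 115 to 291 in Control. In the pericyte and smooth muscle list Gp120 B was the highest array and Control A the lowest, as they were for CDH2. Control A was also the lowest array for TJP1, JAM3, NECTIN2, CTNNA1 and CDH11. In no other marker list was Control A the lowest array, and in the Müller glia and neuron lists it was the highest. In the fibroblast list TAT A was the highest and Gp120 A the lowest. Gp120 B was the highest in the epithelial list but the lowest in the microglia list. The sums of 6 Müller glia markers were 351 to 390 with TAT, 413 to 465 with Gp120 and 338 to 483 in Control. The part of these markers in the junction values was not tested.

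Of the wider set of junction genes, 78 are not members, and 73 of these had a probe on the array. A kept probe was found for 45, and 12 were above background on no array. Among those 12 were occludin (OCLN), the claudins CLDN2, CLDN3, CLDN18 and CLDN23, and the endothelial cadherin CDH5. Some probes of detected members were also above background on no array, so the transcripts of these genes need not be absent. For TAT 27 of the 45 were above 0 and 18 below, with a median of 0.04, and for Gp120 24 were above and 21 below, with a median of 0.04. Not 1 was called (limma, adjusted p under 0.05), and 1 had an unadjusted p under 0.05 in each comparison. Members included, the adherens list had 14 of 20 above 0 with TAT (median 0.31) and 16 of 20 with Gp120 (median 0.45). The tight junction list had 16 of 27 (median 0.02) and 12 of 27 (median -0.14). Of all genes 45% were above 0 with TAT and 48.1% with Gp120. Both lists hold members, which were chosen with earlier results known, so their counts carry the same limit. Of 4 gap junction genes 3 were above 0 with each protein, and of 3 desmosome genes 1 with TAT and 2 with Gp120.

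The smallest p-values for TAT were those of the claudins CLDN10 (-0.90, SE 0.37) and CLDN5 (-0.74, SE 0.34), pore or barrier proteins of tight junctions, and of the plakin PPL (0.80, SE 0.49), which links desmosomes to filaments. CLDN10 was above background on only 3 arrays, so its value rests in part on levels not well above background. For Gp120 they were CLDN1 (-0.89, SE 0.33), the channel PANX1 (-0.76, SE 0.35) and the cadherin CDH4 (0.92, SE 0.42). PANX1 was above background on 5 of the 8 arrays, with the same limit. CLDN1 read -0.69, -0.80 and -0.81 with TAT, -1.21, -2.0 and -1.79 with Gp120, and -1.19 and -0.37 in Control, where Gp120 lay wholly below both other groups.

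Between letters 8 of these 45 genes were called (17.8%), a share near that of all genes on their brightest probe (13.6%). The smallest p-values were those of the gap junction connexin GJA5, the cadherin CDH6 and the endothelial adhesion molecule ESAM, all higher in B than in A, by 3.52 (SE 0.24), 2.49 (SE 0.21) and 1.85 (SE 0.20). Their adjusted p in the F-test was 0.00266, 0.00317 and 0.00739. CDH6 read -1.30, -1.76 and -1.52 in letter B (TAT, Gp120, Control), -0.93 and -1.12 in letter C, and -3.53, -3.99 and -4.52 in letter A.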

How the data were processed

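The intensity values were made by the authors with Agilent Feature Extraction 11.5.1.1, per the file headers, which give processed signals per spot after background subtraction and detrending, along with mean and background signals and no scaling from array to array. Log2 values, 1 per gene name and array, stand in a table the authors deposited, whose making is not described in the labels or headers. It served as an alternative. Its column medians ran from -3.33 to -3.18. Direction and log2 scale follow from the scanner values, with single-probe genes within 0.02 of them, after a shift per array, for 98% and 97.8% of values on Gp120 B and C and 8.47% to 15.2% on the other 6 arrays. For JAM3 the nearest mean held the 2 brighter probes on the 3 letter A arrays and all 3 probes on the other 5, so table values of genes with several probes can follow a changing set of probes.

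The log2 of each processed signal was taken relative to the 75th percentile of its array. Control spots and outlier flags (4 to 37 spots per array) were left out, and 0 spots were saturated. Probe names were matched to the bovine RefSeq gene table (ARS-UCD2.0, names only); all 31 member probes matched. Comparisons of groups used limma 3.58.1 (lmFit, eBayes) under R 4.3.3, with 8 arrays in 1 fit (no block, two-sided, Benjamini-Hochberg over 31546 probes), and the fit was tested on simulated data. Figures were drawn with matplotlib 3.10.9 and tables made with pandas 2.3.3 and numpy 2.4.6 in Python 3.11.15. The number of arrays limits the precision. The members, junction lists and markers were chosen with earlier results of these data known. Named genes were all members with every probe, with the brightest kept probe (highest mean over 8 arrays) standing for a gene. To these were added the 3 other junction genes with the smallest p in each of TAT minus Control, Gp120 minus Control and between letters, and the 2 genes most correlated with each member.

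Letters were checked for pairing before fits were compared. Deviations from group means correlated at 0.32 to 0.70 between arrays of the same letter and at -0.59 to 0.40 between different letters. Since every same-letter value is above 0.1 the letters were taken to pair the arrays. The ranges overlap: TAT C and Gp120 C gave 0.40 and 0.36 with Control B, against 0.32 for TAT B with Control B. TAT and Gp120 arrays of the same letter share a slide row, so among treated arrays the check cannot tell letter A from row 1. Within row 2, TAT B with Gp120 C gave -0.07 and TAT C with Gp120 B gave -0.13. The 2 Control arrays mirror each other in this measure. Alternatives were normexp (offset 50) with quantile scaling, other percentiles, filters and probe choices, the value table, letter, slide row and scan as blocks, and leaving out each array.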

Additional observations from a re-analysis of the deposited data

How the results depend on the processing

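With the replicate block 0 probes were called in each comparison of groups, as without it, with members higher in 7, 9 and 5 of 9 cases, and it changed no call. The value table, with 1 row per gene name, called 4, 3 and 15 gene names in TAT minus Control, Gp120 minus Control and TAT minus Gp120. Leaving out single arrays gave 0 to 2, 0 to 1 and 0 called probes, with 2 and 1 without Control A and 1 and 1 without Control B. Members higher than Control numbered 4 to 8 with TAT and 4 to 9 with Gp120 without single arrays, and 2 to 7 for TAT minus Gp120 (2 without Gp120 A). For Gp120 they were 5 with scan as a block and 4 with the replicate block and without Control A. For TAT minus Gp120 they were 2 in the value table and 3 with the median over the probes of a gene. Probes called between letters, 4037 as reported, numbered 1021 to 2464 without single arrays, 1953 with no filter, 1529 of 19371 in the value table, 179 with slide row as a block, 1555 with scan as a block and 2164 of 12062 with 1 probe per gene.

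In the 3 comparisons of groups no member passed in any of the 21 alternatives, and 516 of 567 values kept their sign. Between letters, CDH11 A_73_P067086 (adjusted p = 0.0448) and A_73_P206137 (0.0406) passed in 1 alternative each. The value table turned TJP1 (-0.62), CDH11 (-0.29), F11R (0.216) and ARVCF (0.218) for TAT, TJP1 (-0.518) and CDH11 (-0.232) for Gp120, and TJP1 (-0.102), CTNNA1 (-0.304) and CDH11 (-0.0582) for TAT minus Gp120. The median over probes turned CTNNB1 (-0.0369) and F11R (0.147) for TAT, and TJP1 (-0.0403) and CTNNA1 (-0.565) for TAT minus Gp120. Slide row as a block turned CTNNA1 for TAT (-0.276) and for Gp120 (-0.284) and TJP1 for Gp120 (-0.139). Scan as a block turned TJP1 (-0.265), JAM3 (-0.0517), CTNNA1 (-0.334) and CDH11 (-0.0131) for Gp120 and CDH2 for TAT minus Gp120 (0.144). The replicate block and scan together turned TJP1 for Gp120 (-0.0462), and CTNNB1 (0.201) and CDH2 (0.216) for TAT minus Gp120. Normexp with quantile scaling turned TJP1 (-0.0709) and F11R (-0.0269) for Gp120. The replicate block without Control A turned CTNNA1 (-0.0933) and CDH11 (-0.012) for TAT, and TJP1 (-0.17), NECTIN2 (-0.0236), CTNNA1 (-0.101), CDH11 (-0.301) and F11R (-0.136) for Gp120. The cause was not tested, except that the value table averages other probes.

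Without single arrays TJP1 ranged from -0.0919 to 0.666, CTNNA1 from -0.284 to 0.58, CDH11 from -0.0434 to 1.45 and ARVCF from -0.371 to 0.0314 for TAT. For Gp120 the ranges were -0.345 to 0.413 for TJP1, -0.00522 to 0.994 for NECTIN2, -0.291 to 0.572 for CTNNA1, -0.332 to 1.17 for CDH11 and -0.0429 to 0.253 for F11R. For TAT minus Gp120 they were -0.119 to 0.304 for JAM3, -0.105 to 0.357 for NECTIN2, -0.216 to 0.0882 for CTNNB1, -0.229 to 0.196 for CTNNA1 and -0.779 to 0.00958 for CDH2. Where Control keeps 1 array, it is assumed to vary like the other groups. The dim ARVCF probe moved from 0.93 to 0.27 for Gp120 with normexp and quantile scaling together, which were not tried apart. There are only 2 Control arrays, both in slide row 1 and scan 2, with a single Gp120 array beside them in that row and scan.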
